A study of Mus musculus with 18 samples.

Results

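The 10 genes described here are the PIM kinases Pim1, Pim2 and Pim3, the feedback genes Socs1, Socs2, Socs3 and Cish, the transcription factor gene Stat3, and the receptor genes Osmr and Il6st. They were taken by symbol from the 36047 genes to which a transcript of the count tables was assigned. The genes were chosen by symbol with results of these data known, and selected on values that include the 5.63-fold higher Pim1 in LLC cells with sh3, so the differences between the LLC groups are given as a description, without a p-value. All 10 genes had a transcript in the tables, 10 were tested in UN-SCC679, and 9 were tested in LLC, where Cish had no counts.

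JAK-STAT signalling carries the message of many cytokines to the nucleus. A cytokine brings receptor chains together, receptor-bound Janus kinases (JAKs) phosphorylate each other and the receptor, and STAT proteins docked there are phosphorylated, enter the nucleus and bind DNA. The oncostatin M receptor chain encoded by Osmr pairs with gp130, the shared chain of the IL-6 family encoded by Il6st, and both feed STAT3. Among the genes that STATs induce are those of SOCS proteins and of CIS (Cish), which inhibit the receptors and JAKs and so close a feedback loop, and those of the PIM kinases, serine/threonine kinases without a known regulatory domain whose activity follows their abundance. PIM kinases favour survival, translation and cell cycle progression, and SOCS3 binds gp130. These are statements about proteins; the measurements below are of RNA.

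RNA was measured in 18 libraries, 3 in each of 6 groups, from 2 mouse lung cancer cell lines. LLC (Lewis lung carcinoma) comes from C57BL/6 mice and is labelled lung adenocarcinoma, and UN-SCC679 comes from A/J mice and is labelled lung squamous carcinoma. In each line, TPLKO carrying the sh3 construct was set beside the same vector left empty. Doxycycline was given to all 4 of these groups, the empty-vector controls included. In UN-SCC679 without doxycycline (the treatment label reads N.A.), cells with OE_DSTYKwt were set beside cells with the empty pLENTI6 vector. The series asked how the transcriptome of these lines changes when DSTYK, a dual serine/threonine and tyrosine kinase, is altered. Knockdown rests on 1 construct, sh3, and no source used here says whether a group comes from 1 clone or a pool. In these bulk libraries, fewer cells of a type and less RNA per cell cannot be told apart.

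The promoters of Socs3 and Cish are shown because, among the members with a promoter sequence, they alone hold the letters TTCNNNGAA, a spacing of inverted half-sites known from STAT binding (capitals below, both 5′ to 3′ on the strand of the gene). The searched windows ran from 250 bases before to 50 bases after each gene's start in RefSeq on GRCm38.p6. The motif is its own reverse complement, so a search of 1 strand covers both strands. The Socs3 stretch lies at chr11:117969501-117969530 on the minus strand, with the match at position -154 relative to the start, and the Cish stretch lies at chr9:107296654-107296683 on the plus strand, with matches at positions 0 and 11 that do not overlap. Positions count from the start, which is 0, to the first base of the match.
Socs3: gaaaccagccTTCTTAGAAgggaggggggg
Cish: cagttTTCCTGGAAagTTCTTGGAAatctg
Of 32851 RefSeq promoter windows of the same length, 2726 (8.30%) held at least 1 match and 150 (0.457%) held 2 or more. The other 8 windows of members, with Pim1 represented by more than 1, held no match, which says only that these letters are not in those stretches, and Socs2 had no window. A match is a description of the sequence, and no binding was measured.

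Dstyk, the targeted gene, was read first. In LLC it stood at 43.2 ± 2.14 CPM (SD, n = 3) with the empty vector and 23.2 ± 0.789 CPM with sh3. In UN-SCC679 it stood at 37.1 ± 1.03 CPM with the empty TPLKO vector and 26.3 ± 0.871 CPM with sh3, and it was 30.5 ± 1.46 CPM with the empty pLENTI6 vector and 37.2 ± 0.696 CPM with OE_DSTYKwt. CPM are estimated counts relative to library size, scaled by TMM (trimmed mean of M-values) over all 18 libraries. Libraries held 40525385 to 46528071 estimated counts. When libraries of 1 group were compared pairwise (18 pairs), the first empty pLENTI6 library stood apart, with a mean chi-square per gene of 12.17 and 13.79 against the other 2 of its group and at most 4.994 in any other pair. The epithelial markers Epcam and Cdh1 did not exceed 0.136 and 0.489 CPM in any library, the squamous keratin Krt5 did not exceed 0.0489 CPM, and Krt5, Krt6a and Sox2 were at 0 in all LLC libraries. Other markers of its label were present in UN-SCC679: by group, the epithelial keratin Krt8 averaged 285 to 568 CPM and Krt18 83.2 to 339 CPM, and the squamous lineage factor Sox2 averaged 34.2 to 79.9 CPM and Trp63 2.20 to 13.5 CPM. In LLC, Krt18 averaged 34.3 and 35.1 CPM and Krt8 did not exceed 0.771 CPM. A fibroblast list of 5 genes summed to 12282 to 12674 CPM in UN-SCC679 with the empty TPLKO vector and to 37.2 to 40.3 CPM in LLC with the same vector. Each line thus lacked part of the marker set of its labelled type.

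Between the LLC groups, 8 of the 9 tested members passed an adjusted p of 0.05, 7 higher and 1 lower with sh3, where 72.6% of the 13767 genes tested did so (36.2% higher, 36.4% lower). Nothing is read from that count. The median log2 difference of the 9 members was 0.33, and that of all tested genes 0.0099. In UN-SCC679 with sh3, 5 members were higher, 2 were lower and 3 were not called, where 63.8% of all 14271 genes tested were called (31.8% higher, 32.0% lower). With OE_DSTYKwt, 2 members were higher, 3 were lower and 5 were not called, where 29.7% of 13975 genes were called (14.6% higher, 15.2% lower). The shares of members called, 7 of 10 and 5 of 10, thus stand beside a background in which many genes moved, and the first is near it. Calls are from edgeR's quasi-likelihood test fitted over all genes, with Benjamini-Hochberg adjustment, and since no label calls the replicates separate cultures, the p-values reflect library-to-library spread that may be technical.

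**Figure D1:**
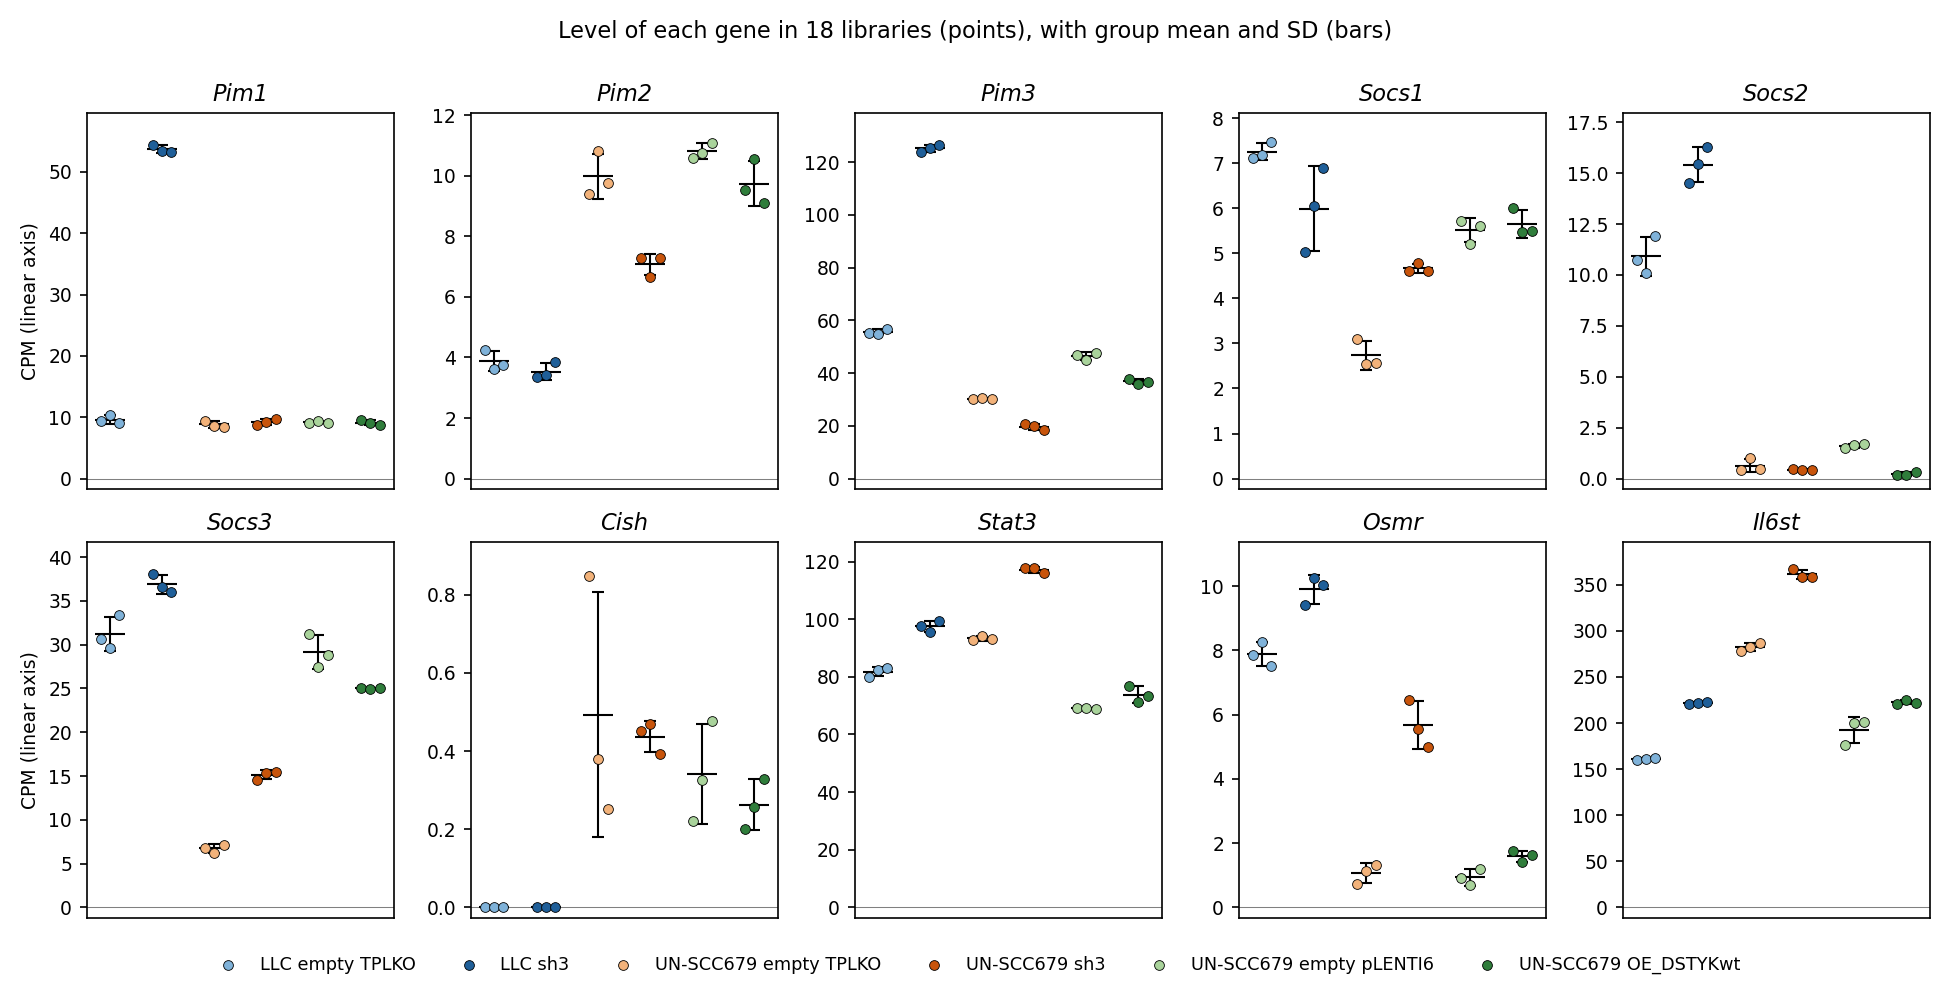
Level of each of the 10 genes in CPM on linear axes that differ between panels, with 1 point per library and a bar for the mean and SD of each group of 3. Pim1 stands between 53.3 and 54.4 CPM in LLC with sh3 and at 10.4 CPM or less in the 15 other libraries, and Cish is at 0 in all 6 LLC libraries.

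Pim1 was low and nearly level in 5 of the 6 groups and high in the sixth. With the empty vector, the LLC libraries held 9.34, 10.4 and 9.02 CPM, and with sh3 they held 54.4, 53.5 and 53.3 CPM. The groups lay far apart, and the spread within each was small beside the gap. The fitted difference was 2.49 ± 0.046 (log2, SE), the 5.63-fold value that led to the choice of genes. In UN-SCC679 the empty TPLKO libraries held 9.44, 8.64 and 8.39 CPM of Pim1 and the sh3 libraries 8.72, 9.15 and 9.79 CPM, which overlap. The fitted log2 difference there was 0.06 ± 0.079, with an adjusted p of 0.519 in edgeR's quasi-likelihood test, and after removal of the chromosome 17 median of 0.25 it was -0.19. On the scale per transcript length, Pim1 was at 8.94, 8.27 and 7.98 TPM with the empty TPLKO vector and 9.35, 9.77 and 10.4 TPM with sh3. There the groups did not overlap, and limma on log2(TPM + 1) called it higher by 0.21 (adjusted p = 0.0385; 0.0385 to 0.889 over the alternatives). With OE_DSTYKwt, Pim1 was at 9.54, 9.10 and 8.73 CPM, and with the empty pLENTI6 vector it was at 9.05, 9.42 and 9.13 CPM. These also overlap, and the log2 difference was -0.01 ± 0.054 (edgeR adjusted p = 0.905).

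Pim3 differed in opposite directions between the lines. In LLC it was 55.1, 55.0 and 56.7 CPM with the empty vector and 124, 126 and 126 CPM with sh3, and the groups did not overlap. That difference was 1.18 ± 0.024 on the log2 scale, or 2.26-fold higher. In UN-SCC679 the level went from 30.3, 30.4 and 30.4 CPM with the empty TPLKO vector to 20.6, 19.9 and 18.4 CPM with sh3. Every sh3 library was below every control, and Pim3 fell by 0.63 ± 0.048 on the log2 scale (1.54-fold, edgeR quasi-likelihood adjusted p = 3.22e-07). With OE_DSTYKwt it also fell, from 46.8, 44.9 and 47.8 CPM to 37.9, 35.8 and 36.8 CPM. Those groups did not overlap either, and the log2 difference was -0.33 ± 0.035 (1.26-fold lower, edgeR adjusted p = 0.000112). In UN-SCC679, then, Pim3 was lower in both altered arms than in their own controls.

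Pim2, the PIM kinase best known from lymphoid cells, was the least abundant of the family in LLC. Its LLC libraries held 4.25, 3.63 and 3.75 CPM with the empty vector and 3.34, 3.43 and 3.85 CPM with sh3. The ranges overlap, and the log2 difference was -0.13 ± 0.12. In UN-SCC679 it fell with sh3, from 9.39, 10.8 and 9.75 CPM to 7.28, 6.67 and 7.29 CPM, without overlap. The log2 difference was -0.50 ± 0.082 (1.41-fold lower, edgeR quasi-likelihood adjusted p = 0.000215). With OE_DSTYKwt, Pim2 was at 9.54, 10.6 and 9.11 CPM against 10.6, 10.8 and 11.1 CPM, a log2 difference of -0.15 ± 0.061 that was not called (edgeR adjusted p = 0.0916).

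On a scale per transcript length (TPM), which allows genes to be set side by side, Pim3 was the most abundant PIM kinase transcript in all 6 groups. In LLC with the empty vector Pim3 stood at 55.9 ± 7.25 TPM (SD, n = 3), Pim1 at 9.98 TPM and Pim2 at 3.30 TPM. With sh3 these levels were 129 ± 2.85, 53.0 and 3.05 TPM. The 3 genes together went from 69.2 ± 6.22 to 185 ± 0.738 TPM, and the share of Pim1 in that sum went from 14.6% to 28.6%. In UN-SCC679 the sum went the other way, from 49.5 ± 1.56 TPM with the empty TPLKO vector to 36.8 ± 1.30 TPM with sh3, and the share of Pim1 was 26.8% with sh3, where Pim1 itself stood at 9.86 TPM. With pLENTI6 the sum was 51.8 ± 1.99 TPM for the empty vector and 45.3 ± 0.950 TPM for OE_DSTYKwt. The level of Pim3 across all groups ranged from 20.5 to 129 TPM and that of Pim2 from 3.05 to 9.63 TPM.

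**Figure D2:**
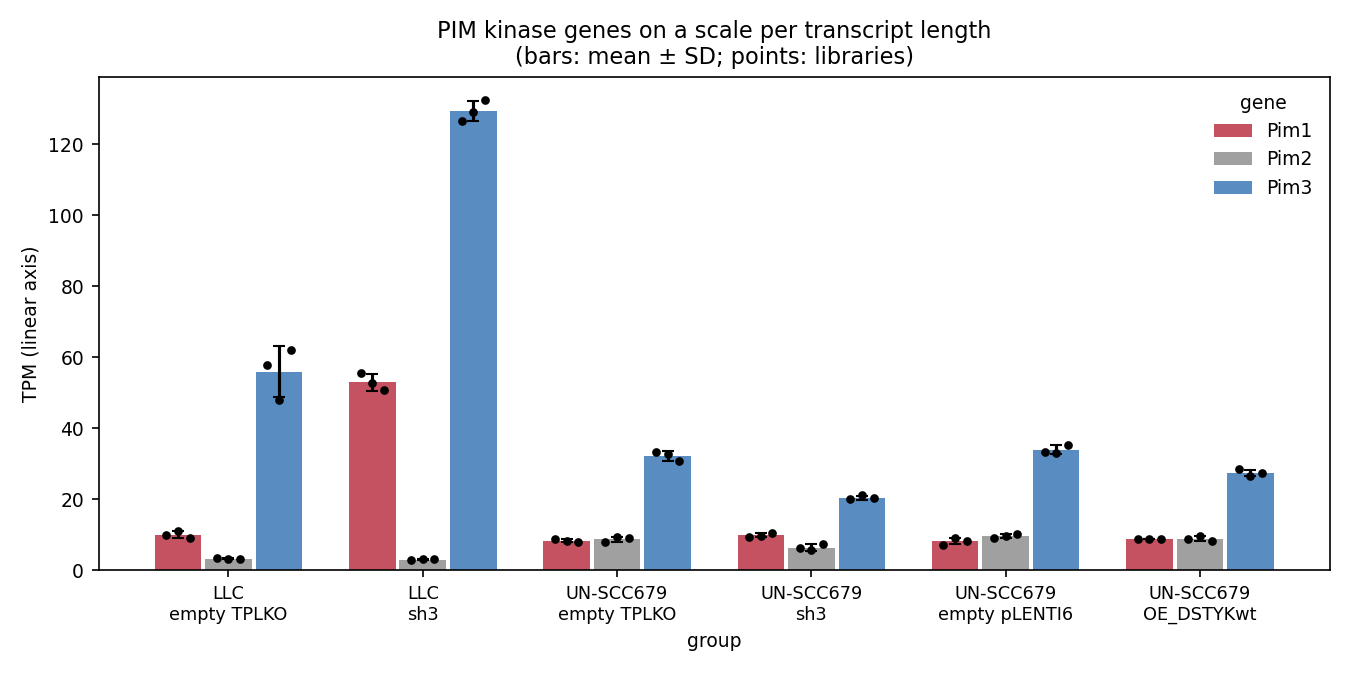
Levels of Pim1, Pim2 and Pim3 in TPM on a linear axis, as the mean and SD of 3 libraries (bars) with each library as a point. Pim3 is the tallest bar in every group, and the LLC group with sh3 has both the highest Pim3, 129 TPM, and the highest Pim1, 53.0 TPM.

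The estimated counts behind these levels are split over transcripts. For Pim1, the protein-coding transcript Pim1-207 held 55.0% of the counts in LLC with the empty vector and 46.4% with sh3, and the retained-intron transcript Pim1-204 held 33.6% and 38.2%. In CPM all 3 main transcripts were higher with sh3 in LLC: Pim1-201 went from 0.672 to 7.03, Pim1-204 from 3.23 to 20.5, and Pim1-207 from 5.25 to 24.9. For Pim3, the noncoding processed transcript Pim3-202 held between 11.2% and 12.6% of the counts on average in the 4 TPLKO groups and none in the 6 pLENTI6 libraries. The coding transcript Pim3-201 alone went from 49.4 to 109.7 CPM in LLC with sh3, from 26.5 to 17.3 CPM in UN-SCC679 with sh3, and from 46.5 to 36.8 CPM with OE_DSTYKwt, the same directions as the gene totals. The split among transcripts that share sequence is the estimate of the quantifier, and Pim1-201 alone ranged widely between libraries of 1 group.

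**Figure D3:**
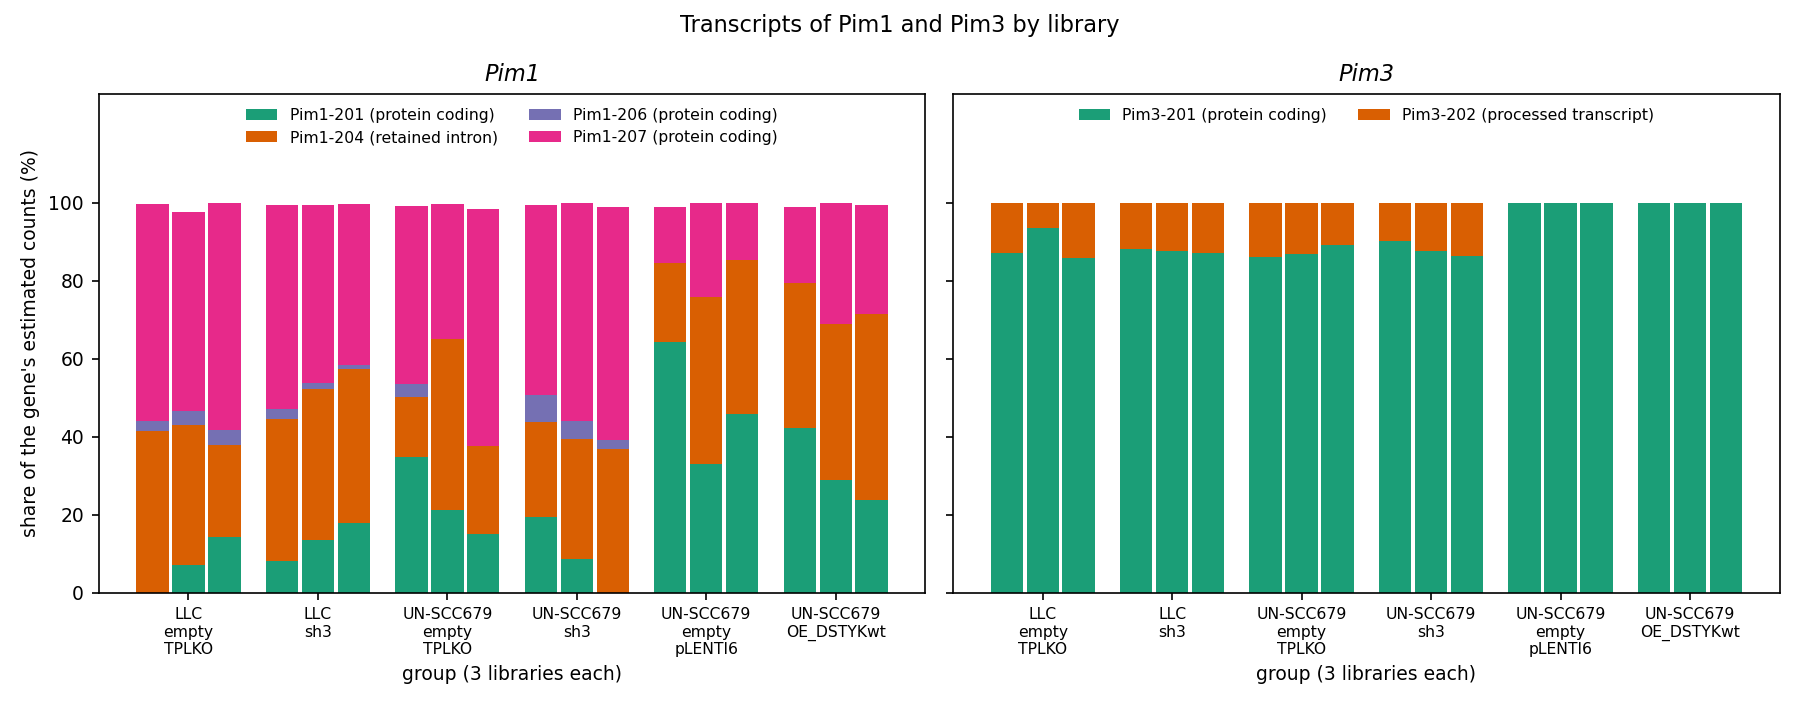
Share of the estimated counts of Pim1 (left) and Pim3 (right) given to each named transcript, in percent, with 1 stacked bar per library and 3 bars per group; transcripts under 5% in every library are not drawn. Pim3-202 holds 11.2% to 12.6% on average in the TPLKO groups and is at 0 in the 6 pLENTI6 libraries.

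Of the feedback genes, Socs3 had the clearest change in UN-SCC679. The empty TPLKO libraries held 6.80, 6.23 and 7.15 CPM and the sh3 libraries 14.5, 15.4 and 15.5 CPM. The groups did not overlap, and Socs3 rose by 1.17 ± 0.073 on the log2 scale (2.25-fold, edgeR quasi-likelihood adjusted p = 5.62e-08). With OE_DSTYKwt it fell, from 31.3, 27.5 and 28.8 CPM to 25.01, 24.94 and 25.05 CPM. That difference of -0.22 ± 0.051 was smaller (1.17-fold lower, edgeR adjusted p = 0.0094), but no OE_DSTYKwt library reached a control. In LLC, Socs3 was 30.6, 29.7 and 33.4 CPM with the empty vector and 38.1, 36.5 and 36.0 CPM with sh3, without overlap and with a log2 difference of 0.24 ± 0.045. The difference between the sh3 and the OE_DSTYKwt effect in UN-SCC679 was 1.40 for Socs3 (edgeR interaction, adjusted p = 3.1e-09), where 51.9% of all 14975 genes differed between these effects (26.1% higher, 25.8% lower). In that test 6 members were higher and 2 lower, and in limma on log2(TPM + 1) 4 were higher and 1 lower, without Pim2 (adjusted p = 0.0751), Stat3 (0.118) and Il6st (0.598). The call for Il6st (0.15) was also lost without any 1 of 9 of the 12 libraries. For Socs1, Socs3, Stat3 and Il6st, the 2 empty-vector groups of UN-SCC679 differed by more than either altered arm did from its control, as given below. For Pim3 the difference between the empty vectors in counts, 0.63, was about the size of its sh3 difference of -0.63. For Pim2, Socs2 and Osmr an altered arm differed by more.

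Socs1, whose protein inhibits JAKs directly, rose in UN-SCC679 with sh3. Its libraries went from 3.10, 2.54 and 2.57 CPM to 4.62, 4.78 and 4.60 CPM. The groups did not overlap, and the log2 difference was 0.77 ± 0.12 (1.70-fold higher, edgeR quasi-likelihood adjusted p = 0.00018). Removal of the chromosome 16 median of 0.16 leaves that direction. In LLC it was 7.11, 7.19 and 7.47 CPM with the empty vector and 5.02, 6.05 and 6.90 CPM with sh3, a log2 difference of -0.27 ± 0.11. The LLC groups did not overlap, yet the sh3 libraries were spread, and the call was lost with scaling by library size, in limma on TPM, and without any 1 of 5 of the 6 libraries, LLC sh3 replicate 3 excepted. Nothing is read from that call, since the genes were selected on values that include the LLC contrast. With OE_DSTYKwt, Socs1 stood at 6.00, 5.47 and 5.49 CPM against 5.72, 5.21 and 5.61 CPM, which overlap (log2 difference 0.04 ± 0.073, edgeR adjusted p = 0.741).

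Socs2, known as a brake on growth hormone signalling, separated the lines and was lowest with OE_DSTYKwt. There the libraries held 0.179, 0.164 and 0.330 CPM, against 1.497, 1.636 and 1.703 CPM with the empty pLENTI6 vector. All 3 were below all controls, and Socs2 fell by 2.83 ± 0.25 on the log2 scale (7.13-fold, edgeR quasi-likelihood adjusted p = 3.99e-05). The estimated counts behind these values were low, 8.37, 7.46 and 13.7 with OE_DSTYKwt and 61.4, 75.3 and 74.9 in the controls. Socs2 thus passed the filter for testing only through the empty pLENTI6 libraries, where it is high, and its call is a description. On log2(TPM + 1), a scale that shrinks differences of low genes, limma gave -0.91 for the same comparison, which remained called. In UN-SCC679 with sh3, Socs2 was at 0.473, 0.421 and 0.440 CPM against 0.412, 1.002 and 0.479 CPM. The second empty TPLKO library alone stood high, and the log2 difference of -0.51 ± 0.39 was not called (edgeR adjusted p = 0.28). In LLC, Socs2 was 10.7, 10.1 and 11.9 CPM with the empty vector and 14.5, 15.4 and 16.3 CPM with sh3, without overlap and with a log2 difference of 0.50 ± 0.073.

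Cish was listed at 0 in all 6 LLC libraries, which allows up to 0.0231 CPM with the empty vector and 0.0222 CPM with sh3 (3 counts over each group; counting error only). UN-SCC679 held a little of it: 0.847, 0.379 and 0.252 CPM with the empty TPLKO vector and 0.451, 0.468 and 0.392 CPM with sh3. The level with the empty TPLKO vector was at least 20.8-fold higher in UN-SCC679 than in LLC, taken against the floor of 3 counts in the group. With pLENTI6 it was 0.221, 0.327 and 0.477 CPM for the empty vector and 0.202, 0.258 and 0.330 CPM for OE_DSTYKwt. Each altered arm overlapped its own control, the counts came to 62, 56, 45 and 34 over the 3 libraries of the 4 groups in that order, and neither comparison was called (edgeR adjusted p = 0.755 with sh3 and 0.465 with OE_DSTYKwt). No change in Cish was detected, with an SE of 0.44 for sh3 and 0.36 for OE_DSTYKwt on the log2 scale at these low counts.

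Set side by side per transcript length, the 4 feedback genes summed to 32.9 ± 2.08 TPM (SD, n = 3) in LLC with the empty vector and 39.2 ± 0.872 TPM with sh3. In UN-SCC679 they summed to 6.84 ± 0.280 TPM with the empty TPLKO vector, 13.7 ± 0.605 TPM with sh3, 25.6 ± 0.910 TPM with the empty pLENTI6 vector and 22.1 ± 0.454 TPM with OE_DSTYKwt. Socs3 made up the larger part of that sum in every group, from 61.2% in LLC with sh3 to 81.7% in UN-SCC679 with OE_DSTYKwt.

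Stat3 differed little in size but evenly between libraries. In UN-SCC679 it was at 92.8, 94.2 and 93.0 CPM with the empty TPLKO vector and 118, 118 and 116 CPM with sh3. It rose without overlap by 0.33 ± 0.023 on the log2 scale (1.26-fold, edgeR quasi-likelihood adjusted p = 1.55e-07). In LLC it was 80.1, 82.4 and 82.9 CPM with the empty vector and 97.7, 95.6 and 99.4 CPM with sh3, also without overlap (log2 difference 0.26 ± 0.025). With OE_DSTYKwt the level was 76.9, 71.1 and 73.3 CPM against 69.1, 69.1 and 68.9 CPM. All 3 libraries were above the controls, and the log2 difference of 0.10 ± 0.033 lay just outside the threshold (edgeR adjusted p = 0.0518). The sh3 effect in UN-SCC679 minus that in LLC was 0.07 for Stat3 and did not pass edgeR's interaction test, in which 3 members were higher and 5 lower, and 59.9% of all genes were called (31.9% higher, 28.1% lower). That test contains the LLC contrast on which the genes were selected, and nothing is read from its count.

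Osmr showed the largest sh3 difference of any member in UN-SCC679. The empty TPLKO libraries held 0.726, 1.14 and 1.33 CPM, and the sh3 libraries 6.47, 5.55 and 4.99 CPM. No library of one group came near the other, and Osmr rose by 2.41 ± 0.20 on the log2 scale (5.31-fold, edgeR quasi-likelihood adjusted p = 6.01e-07). In LLC, where the gene was already at 7.86, 8.26 and 7.52 CPM with the empty vector, it stood at 9.40, 10.26 and 10.04 CPM with sh3. These groups did not overlap, and the log2 difference was 0.33 ± 0.075. With OE_DSTYKwt, Osmr was 1.75, 1.41 and 1.62 CPM against 0.908, 0.698 and 1.20 CPM, without overlap. The log2 difference of 0.77 ± 0.21 (1.70-fold higher) was called in edgeR's quasi-likelihood test (adjusted p = 0.0221), but the call was lost without OE_DSTYKwt replicate 1 (0.084) or 3 (0.0688), without empty pLENTI6 replicate 2 (0.0678) and in limma on TPM (0.0671), in a range of adjusted p over all alternatives from 0.00618 to 0.084.

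Il6st, the gene of the gp130 chain, was higher in each altered arm than in its control. In UN-SCC679 it was at 279, 282 and 287 CPM with the empty TPLKO vector and 367, 358 and 359 CPM with sh3. The groups lay apart, and Il6st rose by 0.35 ± 0.019 on the log2 scale (1.28-fold, edgeR quasi-likelihood adjusted p = 1.58e-08). With OE_DSTYKwt it rose to 221, 225 and 222 CPM from 177, 200.1 and 201 CPM in the controls. The first empty pLENTI6 library was the lowest, and the log2 difference of 0.21 ± 0.045 (edgeR adjusted p = 0.00719) was 0.15 without that library and still called. In LLC, Il6st was 159.7, 161 and 162 CPM with the empty vector and 221, 222 and 223 CPM with sh3, a log2 difference of 0.47 ± 0.017 without overlap. Against Il6st, the Osmr level per transcript length was 0.761% ± 0.138 with the empty TPLKO vector in UN-SCC679, 2.62% ± 0.248 with sh3, 0.821% ± 0.223 with the empty pLENTI6 vector and 1.33% ± 0.439 with OE_DSTYKwt. In LLC that ratio stood at 7.07% ± 0.997 and 7.13% ± 1.08.

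**Figure D4:**
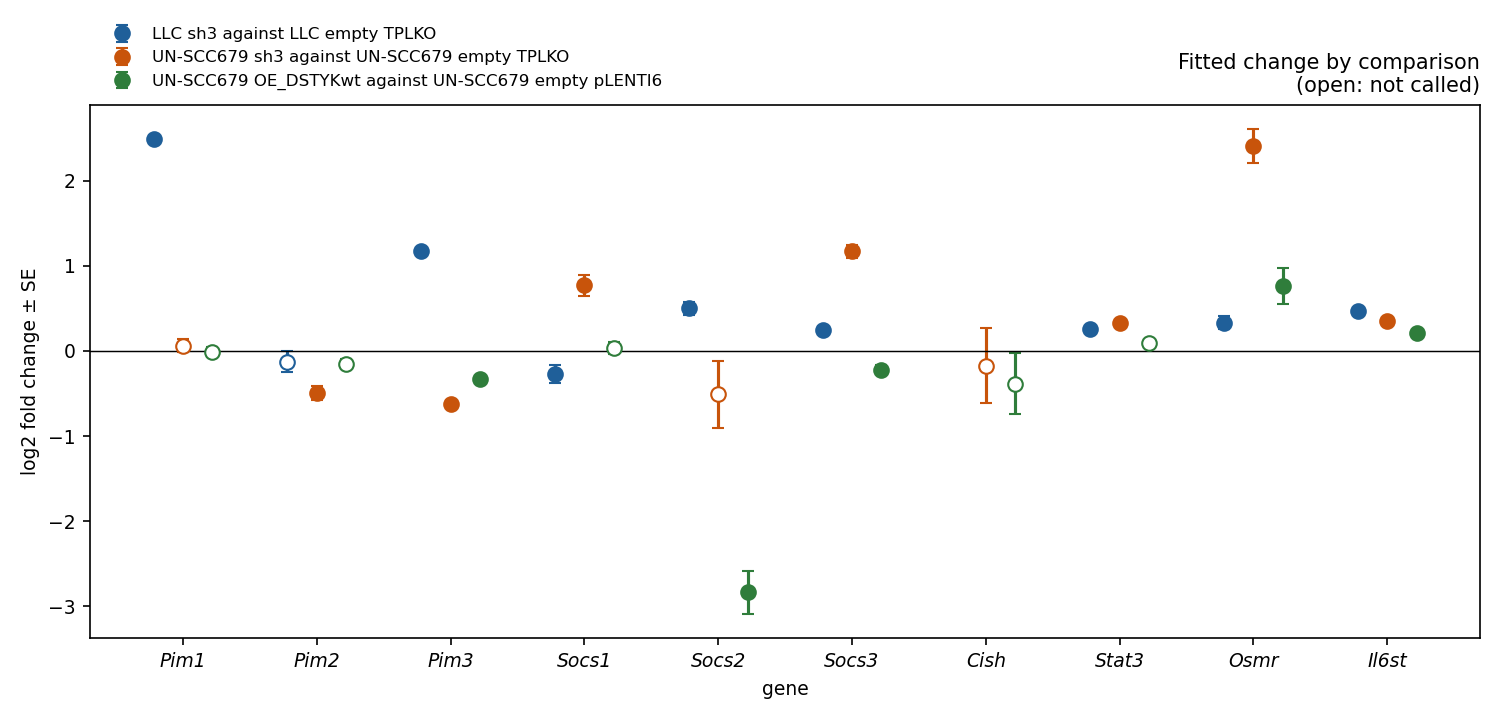
Fitted log2 fold change ± SE of each member in the 3 comparisons of an altered arm with its own control (filled, called at an adjusted p of 0.05; open, not called; Cish has no value in LLC). Pim1 at 2.49 in LLC, Osmr at 2.41 in UN-SCC679 with sh3 and Socs2 at -2.83 with OE_DSTYKwt are the farthest from 0. In that last comparison Socs2 passed the filter only through the empty pLENTI6 libraries. The marks in LLC are a description, since the genes were selected on values that include that contrast.

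Markers moved beside these changes. In UN-SCC679 the summed epithelial list of 5 genes went from 568 to 594 CPM with the empty TPLKO vector to 357 to 379 CPM with sh3. Within it (control, then sh3), Krt8 (440 and 285 CPM) and Krt18 (145 and 83.2 CPM) were lower. Cdh1 (0.0148 and 0.332 CPM) and Krt19 (0 and 0.32 CPM) were higher, at low levels. A squamous list of 6 genes went from 38.7 to 45.5 CPM up to 62.1 to 64.8 CPM, and it did not move together. Trp63 (2.20 and 13.5 CPM), Krt14 (3.09 and 14.2 CPM) and Krt6a (0.455 and 1.38 CPM) were higher with sh3. Sox2 (35.5 and 34.2 CPM) overlapped, and Krt5 and Dsg3 did not exceed 0.0489 CPM. The fibroblast list split: the collagen gene Col1a2, which makes up most of its sum, went from 11690 ± 190.5 to 8604 ± 122.6 CPM and took the sum from 12282 to 12674 CPM down to 9907 to 10213 CPM, while the other 4 genes were higher with sh3, among them Col1a1 at 526 and 1088 CPM and Pdgfra at 6.90 and 56.7 CPM. With OE_DSTYKwt the epithelial sum was 735 to 761 CPM against 883 to 948 CPM in its control, and the squamous and fibroblast sums of those groups overlapped. Single genes of those lists still moved without overlap (control, then OE_DSTYKwt). Trp63 (2.72 and 5.94 CPM), Krt6a (60.9 and 74.5 CPM) and Krt14 (0.619 and 1.04 CPM) were higher, and Sox2 (79.9 and 69.1 CPM) was lower. Col1a1 (7.26 and 11.7 CPM), Pdgfra (16.9 and 34.3 CPM) and Pdgfrb (144 and 167 CPM) were higher, while Col1a2 and Dcn overlapped. In LLC the fibroblast sum was 37.2 to 40.3 CPM with the empty vector and 55.6 to 56.7 CPM with sh3, and the epithelial sums overlapped. This fibroblast list split in LLC as well. Pdgfra (13.3 and 26.8 CPM), Dcn (10.8 and 16.9 CPM) and Col1a2 (1.7 and 6.5 CPM) were higher with sh3. Pdgfrb (9.17 and 3.70 CPM) and Col1a1 (3.30 and 2.17 CPM) were lower. Leukocyte markers, 6 genes, summed to between 1.74 and 4.64 CPM in all groups and endothelial markers, 4 genes, to at most 1.17 CPM. Alveolar and club cell markers, 5 genes, summed to between 36.2 and 57.8 CPM in UN-SCC679 and to at most 1.19 CPM in LLC. In UN-SCC679 only 1 of them, Nkx2-1, reached 1 CPM, averaging 36.2 to 56.3 CPM by group. Nkx2-1 did not exceed 0.113 CPM in any LLC library. The part of the moving lists in the differences of the members, in any of the 3 comparisons, was not tested.

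The lines themselves differed at most members. With the empty TPLKO vector, where 82.9% of all tested genes differed between the lines (42.0% higher in UN-SCC679, 40.9% lower), 4 members were higher in UN-SCC679 (Cish among them) and 5 were lower. Cish, at 0 in LLC, passed the filter for testing only through UN-SCC679, so its call is a description. With a filter of 1 CPM in 3 libraries, 3 members were higher and 5 lower. Socs2 was 16.8-fold lower in UN-SCC679 than in LLC, at 0.631 ± 0.323 against 10.9 ± 0.941 CPM (edgeR quasi-likelihood adjusted p = 4.82e-09). Osmr was 7.32-fold lower, at 1.07 ± 0.31 against 7.88 ± 0.371 CPM (adjusted p = 1.43e-08 in edgeR). Socs3 was 4.60-fold, Socs1 2.63-fold and Pim3 1.82-fold lower, while Pim2 was 2.60-fold, Il6st 1.77-fold and Stat3 1.15-fold higher. Pim1 did not pass the threshold (log2 difference -0.10, edgeR adjusted p = 0.27), removal of the chromosome 17 median of -0.55 gave 0.45, and limma on log2(TPM + 1) called it lower (-0.22, adjusted p = 0.0417; 0.0417 to 0.635 over the alternatives). The lines come from different mouse strains and stand in separate tables, and line, strain and table cannot be told apart.

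The 2 empty-vector groups of UN-SCC679 also differed, in vector and in doxycycline together, where 68.7% of all tested genes differed (35.4% higher with pLENTI6, 33.3% lower). Of the members, 4 were higher with pLENTI6 and 2 were lower. Socs3 was 4.40-fold higher with the empty pLENTI6 vector than with the empty TPLKO vector, at 29.2 ± 1.94 against 6.73 ± 0.464 CPM (edgeR quasi-likelihood adjusted p = 4.32e-09). Socs2 was 2.56-fold and Socs1 2.04-fold higher, and Il6st was 1.45-fold and Stat3 1.33-fold lower. Pim3 was 1.55-fold higher in counts (edgeR adjusted p = 2.07e-07), but on log2(TPM + 1) limma gave a difference of 0.07 that was not called (adjusted p = 0.23, the highest over the alternatives, whose lowest was 2.69e-26). On the TPM scale the short transcript Pim3-202, listed only with TPLKO, weighs more. Pim1, Pim2, Osmr and Cish were not called. The groups stand in separate tables, and Pim3-202, at 0 in all 6 pLENTI6 libraries and present in all 12 TPLKO libraries, is a difference between these tables. Vector, doxycycline and how the libraries of each table were run or processed cannot be told apart, for Socs3 and the other members alike.

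The order of the groups differed by gene. Pim1 ran from 8.82 ± 0.551 to 9.58 ± 0.707 CPM in 5 groups, whose neighbours in the order lay within 1 SD of each other, with LLC sh3 at 53.7 ± 0.61 CPM far above. Pim3 was lowest in UN-SCC679 with sh3 (19.6 ± 1.1 CPM) and highest in LLC with sh3 (125 ± 1.25 CPM). Socs3 was lowest in UN-SCC679 with the empty TPLKO vector, 6.73 ± 0.464 CPM, and highest in LLC with sh3, 36.9 ± 1.12 CPM. Osmr was lowest with the empty pLENTI6 vector, 0.936 ± 0.254 CPM, beside 1.07 ± 0.31 CPM with the empty TPLKO vector, which lay within their spread. Il6st reached its highest level, 361 ± 4.94 CPM, in UN-SCC679 with sh3, and Stat3 did so in the same group, at 117 ± 1.02 CPM.

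The other genes of the pathway, in 6 lists that share a few genes (Myc and Il4ra stand in more than 1), moved in both directions. Each count of these lists stands beside the shares of all tested genes given above: 31.8% higher and 32.0% lower in UN-SCC679 with sh3, 14.6% and 15.2% with OE_DSTYKwt, and 36.2% and 36.4% in LLC. Among cytokines of the IL-6 family, 4 of 7 tested rose in UN-SCC679 with sh3 and none fell, with a median log2 difference of 0.82 beside 0.011 for all genes. Clcf1, a cytokine that signals through gp130, went from 16.7 ± 0.0513 to 29.5 ± 0.901 CPM (log2 difference 0.82). Il6 also rose, from 0.156 ± 0.0617 to 0.891 ± 0.165 CPM, and is named here after its values were seen. Il6 passed the filter for testing only through the sh3 libraries, where it is high. The count of risers and the median of the list include it, so both are a description. Osm, the ligand gene of the Osmr chain, was at 0 in all groups. With OE_DSTYKwt, 2 of 6 rose and none fell, with Lif going from 82.2 ± 2.45 to 110.0 ± 3.08 CPM. In LLC, 3 of 6 were higher and 1 lower with sh3, and Il11 was at 16.3 ± 1.34 and 24.3 ± 0.529 CPM. Between the empty-vector groups of UN-SCC679, 3 of 6 were higher with pLENTI6 and 1 lower (median 0.60), beside 35.4% and 33.3% of all genes.

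Of the receptor chains beside Osmr and Il6st, 11 of 19 tested rose and 2 fell in UN-SCC679 with sh3 (median 0.57), where 31.8% of all genes rose and 32.0% fell. Il6ra, which encodes the IL-6 binding chain that works with gp130, went from 15.3 ± 0.0891 to 33.9 ± 1.09 CPM there (log2 difference 1.14). Lifr, the LIF-binding partner of gp130, fell from 4.25 ± 0.905 to 1.74 ± 0.247 CPM (-1.29). Il13ra1 rose from 35.6 ± 1.44 to 100.3 ± 1.69 CPM. A similar split stood between the empty-vector groups of UN-SCC679, where 10 of 17 were higher with pLENTI6 and 2 lower (median 0.49). Of all genes, 35.4% were higher and 33.3% lower there. With OE_DSTYKwt, 3 of 17 rose and 5 fell (median -0.09), beside 14.6% and 15.2% of all genes, with Lifr going from 9.65 ± 0.883 to 5.51 ± 0.343 CPM and Il4ra from 85.5 ± 0.207 to 56.3 ± 1.12 CPM. In LLC, 10 of 18 were higher and 4 lower with sh3 (median 0.38), beside 36.2% and 36.4% of all genes, and Il6ra stood at 41.5 ± 2.16 CPM with the empty vector and 15.5 ± 0.644 CPM with sh3, the opposite direction to UN-SCC679.

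Among JAKs and the other STATs, 5 of 9 rose and 1 fell in UN-SCC679 with sh3, where 31.8% of all genes rose and 32.0% fell. Stat5a rose from 5.78 ± 0.465 to 13.1 ± 0.73 CPM and Jak2, a kinase bound by gp130 and many other receptors, from 35.8 ± 1.02 to 46.2 ± 2.74 CPM. With OE_DSTYKwt, 5 of 9 rose and none fell, where 14.6% of all genes rose. In LLC, 6 of 9 were higher and 2 lower with sh3, beside 36.2% and 36.4% of all genes, with Stat2, a partner in type I interferon signalling, at 11.1 ± 0.431 and 27.7 ± 1.21 CPM. The negative regulators outside the members split: 7 rose and 4 fell of 15 in UN-SCC679 with sh3, 3 rose and 1 fell of 15 with OE_DSTYKwt, and 7 were higher and 7 lower of 16 in LLC. Ptpn6, the gene of the phosphatase SHP-1, went from 1.76 ± 0.246 to 9.02 ± 0.544 CPM in UN-SCC679 with sh3, and Ptpn11, the gene of SHP-2, fell from 296.7 ± 1.34 to 256.8 ± 5.26 CPM.

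Of other known STAT3 and STAT5 target genes, 16 of 29 rose and 10 fell in UN-SCC679 with sh3 (median 0.20), 5 rose and 5 fell of 29 with OE_DSTYKwt (median 0.0079), and 14 were higher and 8 lower of 29 in LLC (median -0.03). Between the empty-vector groups of UN-SCC679, 17 of 29 were higher with pLENTI6 and 7 lower (median 0.58). Medians there were 0.13 for JAKs and other STATs, 0.02 for negative regulators and -0.05 for PIM kinase substrates. The transcriptional repressor gene Bcl6 rose from 19.1 ± 0.238 to 43.0 ± 1.08 CPM with sh3 and from 37.7 ± 1.05 to 52.3 ± 0.936 CPM with OE_DSTYKwt in UN-SCC679. The metallothionein gene Mt2 rose from 11.8 ± 1.18 to 38.1 ± 0.758 CPM with sh3, while the cyclin genes Ccnd1 and Ccnd2 fell there by 0.57 and 0.52 on the log2 scale. In LLC, Myc stood at 532.6 ± 12.1 and 756.8 ± 12.5 CPM. Genes of PIM kinase substrates, which the kinases act on as proteins, split as well: 10 rose and 7 fell of 19 in UN-SCC679 with sh3, 3 rose and 2 fell of 18 with OE_DSTYKwt, and 5 were higher and 9 lower of 17 in LLC. With scaling by library size alone, 3 substrate genes fell in UN-SCC679 with sh3. Cdkn1a, the gene of the cell cycle inhibitor p21, rose from 5.24 ± 0.611 to 15.6 ± 0.448 CPM with sh3 and fell from 2.56 ± 0.127 to 1.57 ± 0.0713 CPM with OE_DSTYKwt.

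**Figure D5:**
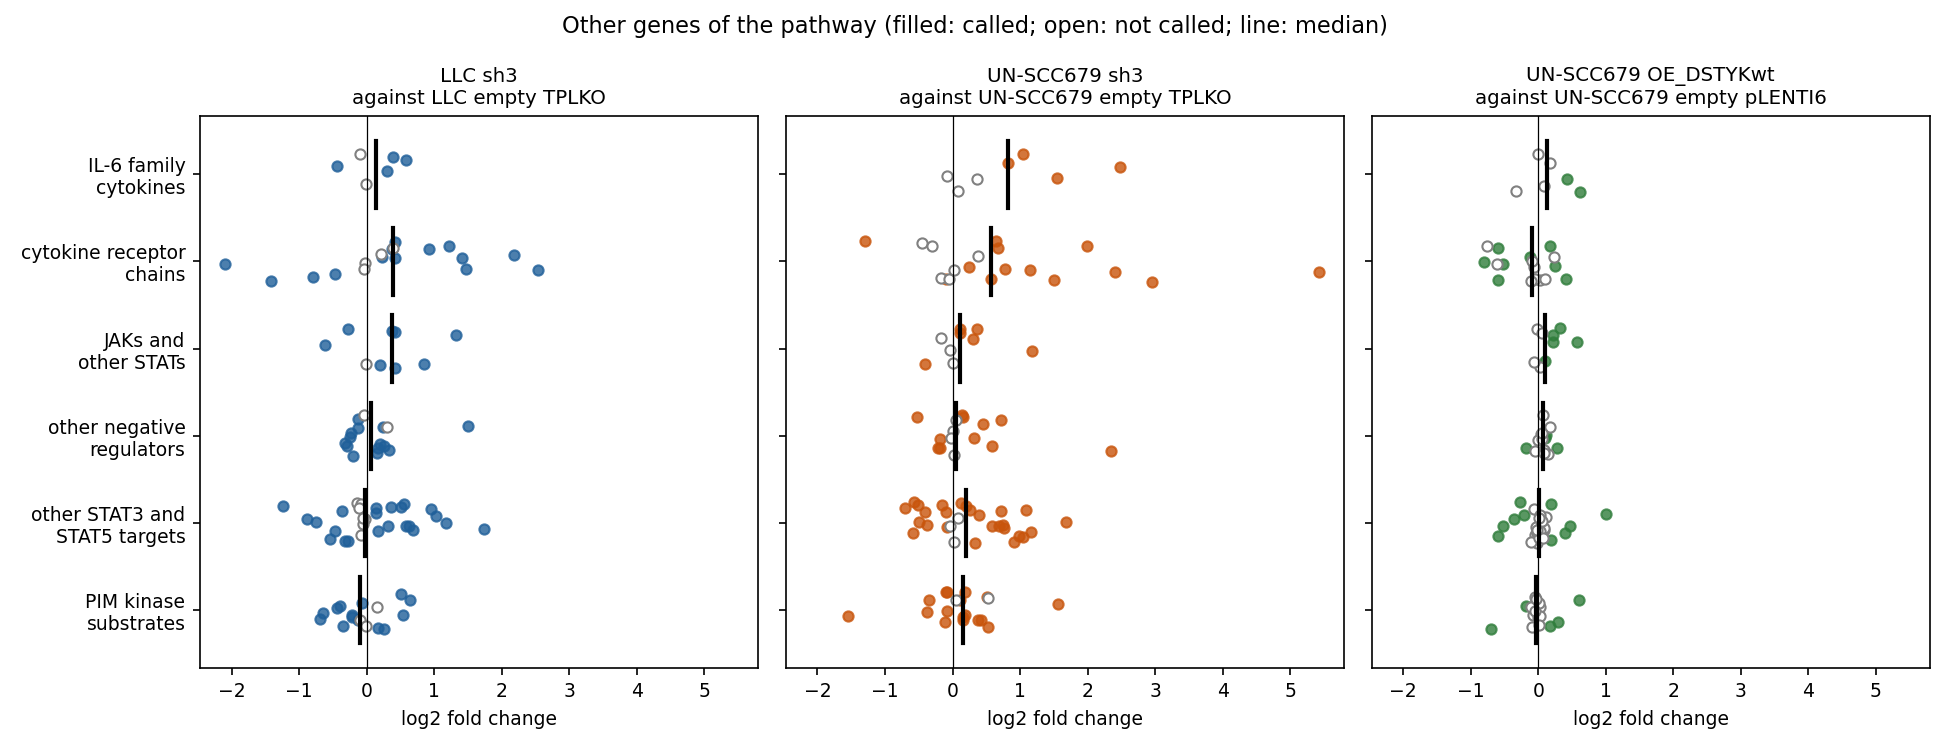
Log2 fold change of each tested gene of the 6 pathway lists in the 3 comparisons of an altered arm with its control (filled, called; open, not called; black line, median of the list). The cytokine list in UN-SCC679 with sh3 has the median farthest from 0, at 0.82, and includes Il6, which passed the filter only through the sh3 libraries.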

How the data were processed

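The deposited tables hold estimated counts for each transcript, which the authors obtained with kallisto on the mouse build mm10 per the submitters' processing notes, which also name sleuth. Versions were not given in the sources used here. The same deposited tables give effective transcript lengths in bases. Per the labels' protocols, a stranded Illumina mRNA kit was used and both run types, single-end and paired-end, are named.

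Groups came from sample titles. Of 118489 transcripts, 116816 were assigned to genes by the GENCODE M21 annotation of GRCm38 (mm10), and the 1673 unmatched, with 0.515% to 0.593% of the counts of a library, were left out. Counts were summed per gene and rounded. Tests used R 4.3.3 with edgeR 4.0.16 (quasi-likelihood, TMM, default filter of a count of 10 and a total of 15) on the libraries of each comparison, with Benjamini-Hochberg adjustment over all genes and a threshold of 0.05. SE came from the test's F statistic. TPM were computed from counts and effective lengths. Alternatives used DESeq2 1.42.0, limma 3.58.1 on log2(TPM + 1), other scalings and filters, all 18 libraries, a replicate block, chromosome medians and each library left out. Procedures were tested on simulated data. CPM and TPM are relative to the RNA of a library, and kallisto's sharing of reads between similar transcripts makes transcript shares less certain than gene sums. Intervals and floors cover counting error only.

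The members, pathway lists and markers were chosen with earlier results of these data known. Named pathway genes are the 2 called members of a list in each direction with the smallest adjusted p, with a few others marked where they stand; not all are named, and some results are not reported here.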

Additional observations from a re-analysis of the deposited data

Results flagged for a closer look

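For 8 members the fitted sh3 effect in UN-SCC679 minus that in LLC (log2) passed edgeR's interaction test on 12 libraries, as did 59.9% of all 15399 genes tested. The difference contains the LLC contrast on which the genes were selected, so the values are a description, and nothing is read from their number. Pim1 gave -2.43. Pim3 gave -1.80, with opposite directions in the 2 lines. Socs1 gave 1.05, also with opposite directions, and Socs3 gave 0.93. Osmr gave 2.08, starting from 1.07 CPM in UN-SCC679 and 7.88 CPM in LLC with the empty vector. Il6st gave -0.11, and this difference was not called with all 18 libraries in the fit. Socs2 gave -1.02, and without UN-SCC679 empty TPLKO replicate 2 it was -0.50 and not called; limma on log2(TPM + 1) did not call it either. Pim2 gave -0.36, a call lost in limma, with no filter, with the replicate block and without any 1 of 5 of the 12 libraries. No group has more than 3 libraries, so no search for a library far from its group was made gene by gene.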

How the results depend on the processing

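The counts of called genes were within 1.5 times the main count under all 110 alternatives. Of 252 alternatives for 84 counts of the pathway lists, 245 stayed within that limit and 7 moved. In UN-SCC679 with sh3, PIM substrate genes that fell went from 7 to 3 with scaling by library size alone. Receptor chains that fell there went from 2 to 1 with that scaling, a filter of 1 CPM or the replicate block. With OE_DSTYKwt, receptor chains that fell went from 5 to 3 with the block. Negative regulators that rose there went from 3 to 5 with library-size scaling. Of 1128 alternatives for 68 results of single members, 1063 kept direction and side of the threshold, 35 lost the call, 11 gained it and 19 changed direction. None of the results that changed direction was called in the reported fit. Removal of the chromosome median is a shift without a new test, so its values carry no call of their own. With limma on log2(TPM + 1), Pim1 gained a call with sh3 in UN-SCC679 (0.21) and between the lines (-0.22), and gave 0.11 with OE_DSTYKwt and -0.0341 between the empty vectors, and Cish gave 0.22 with sh3 in UN-SCC679 and 0.00017 with OE_DSTYKwt. With the chromosome median removed, Pim1 gave 0.0189 with OE_DSTYKwt, -0.19 with sh3 in UN-SCC679, 0.45 between the lines, -0.26 between the empty vectors and -0.18 for sh3 minus OE_DSTYKwt. Leaving out each library in turn gave ranges of -0.82 to 0.13 for Cish between the empty vectors, -0.48 to 0.46 for Cish with sh3, -0.10 to 0.84 for Cish in sh3 minus OE_DSTYKwt, -0.39 to 0.0191 for Osmr between the empty vectors, -0.0437 to 0.0207 for Pim1 with OE_DSTYKwt and -0.0069 to 0.0661 for Socs1 with OE_DSTYKwt. Apart from fewer libraries or the subtraction itself, the cause was not tested.

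No label says what a replicate number shares, and the reported fits used no pairing. Deviations of libraries with the same number correlated between -0.196 and 0.182, and those with unlike numbers reached 0.424. With 3 libraries per group, these values cannot decide whether the numbers pair the samples. With the replicate number as a block, 9925, 8806 and 3771 genes were called in LLC with sh3, UN-SCC679 with sh3 and with OE_DSTYKwt, against 9995, 9112 and 4154 without it. Among members, only the call for Pim2 between the lines' sh3 effects was lost. That difference contains the LLC contrast on which the genes were selected, so nothing is read from its call. The other counts with the block were 11703 between the lines, 9565 between the empty vectors, 9078 for the difference between the lines' sh3 effects and 7644 for sh3 minus OE_DSTYKwt. Without the first empty pLENTI6 library, 4936 genes were called with OE_DSTYKwt, and the members were 3 higher and 3 lower, with Stat3 added (0.10, adjusted p = 0.0309 in edgeR; 0.0106 to 0.198 over its alternatives).

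Depth limits Cish in both lines and Socs2 in UN-SCC679, whose counts per library were at most 75.3. It also limits Osmr in the UN-SCC679 groups without sh3, which held at most 78.0 counts per library.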

Other observations

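Genes whose log2 CPM ran most like a member over the 18 libraries, among those whose mean log2 CPM was 3 or more, were listed by Pearson's r as a description; the libraries share line and vector, so high values arise easily. For Pim1 these were Wipi1 (0.984), Erlin1 (0.977) and Pygb (0.977), and for Pim3 they included Npc1 (0.988) and Pank4 (0.986). Socs3 ran most like Prkg2 (0.980), Pcgf2 (0.980) and Prl2c2 (0.979). For Osmr the genes were Itm2b (0.980), Camk1d (0.973) and Svil (0.973), for Stat3 they were St3gal2 (0.986), Ephx1 (0.981) and Nusap1 (0.969), and for Il6st they were Dcaf6 (0.986), Amer1 (0.983) and Ftl1 (0.974). Pim2 ran most like Naa15 (0.992), Socs1 most like Aebp1 (0.964) and Socs2 most like Csnk1g3 (0.976).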
